A study of Drosophila melanogaster with 2 samples.

Results

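Mesoderm and muscle formation in the Drosophila embryo runs through a small set of well-studied regulators, and 10 of them were examined for peaks of a tagged protein, that of CG15269. The 10 genes were taken by symbol from the Ensembl annotation of the release 6 genome and are 10 of the 13945 protein-coding genes on the 6 chromosome arms that carry peaks. They are twi (FBgn0003900), Mef2 (FBgn0011656) and sns (FBgn0024189) on 2R, tin (FBgn0004110), bap (FBgn0004862), lmd (FBgn0039039), nau (FBgn0002922) and how (FBgn0264491) on 3R, bin (FBgn0045759) on 3L, and kirre (FBgn0028369) on X. Chromatin immunoprecipitation with sequencing (ChIP-seq) was done on undissected embryos of both sexes from a transgenic line that stably carries CG15269 with GFP at its C terminus. The description names an anti-GFP antibody, whereas the antibody field names CG15269. The embryos were of 6 to 18 h, an age taken from the source name because the age field holds a value that is not an embryonic age. There were 2 biological replicates of this single group, numbered 2 and 3, and no second condition, and the cells of the embryo in which the protein was recovered are not known.

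The files list peaks and hold no read totals, so sequencing depth is unknown. The authors deposited a list for each replicate and a joint list derived from both replicates, of 30000 peaks each, and a list of 7029 peaks that passed a threshold on the irreproducible discovery rate (IDR), a measure of how well replicates rank a peak alike. The IDR list was the first 7029 peaks of the joint list, in the same order. The signal of a peak is the authors' own value, on a scale that the sources used here do not give, and it was used only to rank peaks within a list. In the IDR list it had a median of 288.1 and a lowest value of 154.4. Rank 1 is the strongest peak of a list. The 2 replicates had a peak at 97.8% of the IDR peaks, and there the ranks in the replicates differed by a median of 1.33-fold and by up to 2.64-fold for 95% of the peaks. A gene is called bound where a summit lies within 500 bp of a transcription start site (TSS).

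The members have well-studied roles. Twist, a basic helix-loop-helix protein, sets up the mesoderm, and Mef2, a MADS-box protein, drives muscle differentiation. Tinman is an NK homeodomain protein of the heart and dorsal mesoderm, and bagpipe, a second NK gene, and biniou, a forkhead gene of the FoxF type, specify visceral muscle. Lame duck is a zinc finger protein needed in fusion-competent myoblasts, nautilus is the fly relative of the vertebrate MyoD family, and held out wings is an RNA-binding protein of the STAR type. Kirre (also called dumbfounded) and sticks and stones are immunoglobulin-type adhesion proteins of founder cells and of fusion-competent myoblasts, which bind each other before myoblasts fuse.

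The DNA at the strongest IDR summit of 6 members is given first, because these summits carry the highest IDR signal within 10 kb of each gene's TSSs. Within 20 kb higher ones lay at tin (1633), bin (1191) and lmd (328). Each window holds 100 bp on either side of the summit, on the plus strand of the RefSeq copy of release 6 (the coordinates of dm6). The windows are chr3R:21378661-21378861 for tin, chr3L:6989216-6989416 for bin, chr3R:23028598-23028798 for lmd, chr3R:23722918-23723118 for nau, chr3R:22049207-22049407 for how and chrX:2744130-2744330 for kirre. Capitals mark matches, on either strand, to any of 8 consensus sequences, which were the E boxes CATATG and CACATG that Twist binds, the Tinman site TCAAGTG, the forkhead core TAAACA, the Mef2 site, the DRE TATCGATA, the M1BP site GGTCACACT and the GAGA element GAGAG.
tin: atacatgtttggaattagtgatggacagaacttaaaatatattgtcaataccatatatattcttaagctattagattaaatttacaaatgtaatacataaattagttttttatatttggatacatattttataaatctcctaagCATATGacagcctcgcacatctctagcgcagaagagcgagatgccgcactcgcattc
bin: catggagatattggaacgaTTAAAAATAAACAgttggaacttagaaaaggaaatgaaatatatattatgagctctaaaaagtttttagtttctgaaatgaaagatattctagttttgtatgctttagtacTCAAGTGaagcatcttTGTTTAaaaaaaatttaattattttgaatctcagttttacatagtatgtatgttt
lmd: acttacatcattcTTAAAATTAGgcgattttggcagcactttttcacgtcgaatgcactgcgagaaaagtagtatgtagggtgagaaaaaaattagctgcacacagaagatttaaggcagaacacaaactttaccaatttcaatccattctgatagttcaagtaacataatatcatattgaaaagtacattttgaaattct
nau: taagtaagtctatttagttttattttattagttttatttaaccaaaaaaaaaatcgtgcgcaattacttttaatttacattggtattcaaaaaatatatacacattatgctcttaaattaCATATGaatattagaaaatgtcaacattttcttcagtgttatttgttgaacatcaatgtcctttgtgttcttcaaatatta
how: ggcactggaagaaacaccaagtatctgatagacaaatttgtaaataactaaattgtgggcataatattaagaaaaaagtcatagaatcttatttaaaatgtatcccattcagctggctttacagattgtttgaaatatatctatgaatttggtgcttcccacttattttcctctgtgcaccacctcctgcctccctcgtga
kirre: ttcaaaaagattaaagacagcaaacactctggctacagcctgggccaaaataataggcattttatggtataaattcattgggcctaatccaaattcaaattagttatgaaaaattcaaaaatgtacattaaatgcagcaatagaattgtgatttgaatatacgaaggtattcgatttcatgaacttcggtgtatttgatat
All 6 windows were rich in A and T, from 64.2% in the how window to 78.1% in the nau window. The bin window held 4 of the matches, namely 1 Tinman site, 2 forkhead cores and 1 Mef2 site that overlaps a forkhead core, while the how and kirre windows held none. The windows of tin and nau each held 1 CATATG, and that of lmd held 1 Mef2 site. The nau and kirre windows lay near promoters of other genes, with summits 313 bp from the TSS of CG10365 and 154 bp from that of Syx4.

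Of the 10 members, Mef2 and tin were bound in the IDR list, 2 of 10, near the background of 20.6% (2876 of 13945) of all protein-coding genes. With a window of 200 bp the call was lost at tin, and with only the IDR peaks above the median signal it was lost at Mef2. In the joint list, which includes peaks below the IDR threshold, 6 of 10 (those and lmd, how, kirre and sns) had such a summit, against 36.3% of all protein-coding genes. Within 10 kb of a TSS 8 of 10 members had an IDR summit, against 62.8% of all genes. For 6 of 10 at least 1 of these summits had the member's own TSS as its nearest protein-coding TSS, against 25.8% of all genes. Introns held an IDR summit in 5 of 10 members, against 14.5% of the 11672 protein-coding genes with an intron. Long genes have more room for intronic summits, and the introns of the members ranged from 0.121 kb in bap to 386 kb in kirre, so counts of genes are set beside counts per length below. The joint list held intronic summits of 6 members, against 23.3% of genes with an intron, and summits within 10 kb of 9 of 10 members, against 80.0% of all genes.

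**Figure D1:**
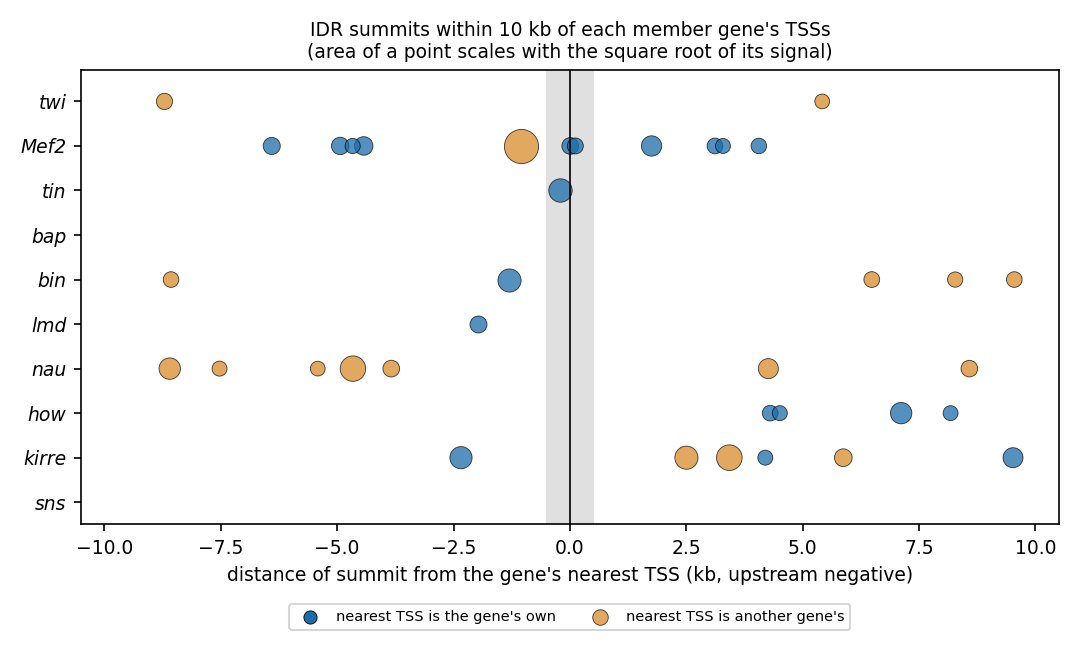
Distance in kb of each IDR summit from the nearest TSS of the member gene, for summits within 10 kb, with 1 row per gene. The grey band marks 500 bp on either side of the TSS, colour shows whose TSS is nearest, and a larger point is a higher signal. The band holds 1 point of tin and 2 points of Mef2, and the rows of bap and sns are empty.

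The gene of mesoderm determination, twi, had no summit within 500 bp of its TSSs in any of the 4 lists. Its annotated model is 63.0 kb long with 3 TSSs, since 1 transcript starts far upstream, and 3 other genes lie within it. The only intronic IDR summit, 17926 bp downstream of the upstream TSS, had a signal of 225.7 and rank 4688, and its peak ranked 4812 in replicate 2 and 5598 in replicate 3. A summit 8710 bp upstream (signal 230.3, rank 4593) had no overlapping peak in replicate 2 and ranked 6318 in replicate 3. Another (signal 156.5, rank 6925) lay beyond the end of the gene, 5420 bp downstream of the nearest twi TSS and 66368 bp from the upstream TSS. Its peak ranked 9989 in replicate 2 and 5981 in replicate 3. The first 7029 peaks of replicate 2 alone held 0 summits within 10 kb of a twi TSS, and those of replicate 3 alone held 2. The twi introns, 60.6 kb in all, had 0.165 IDR summits per 10 kb, against 0.645 over the introns of all protein-coding genes. All 3 of these IDR summits were weaker than the median IDR peak, and other genes had the nearest TSS: CG9896, CG32834 and Fatp2. Stronger IDR summits lay farther out, with a highest signal of 339.2 within 10 kb of the gene body and 675.7 within 20 kb of a TSS.

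Mef2 had more IDR summits near its TSSs than any other member. Within 10 kb of its 3 TSSs lay 11 IDR summits, more than at 99.8% of protein-coding genes, where the median was 1. The TSSs span much of the 45.4 kb gene, which widens that window. Of the 11 summits, 10 had a Mef2 TSS nearest, with 7 in introns and 3 in untranslated exon sequence. None of the 67 summits counted for the members lay in a coding exon of its member gene.

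The promoter peaks of Mef2 were weak. The summit 7 bp downstream of the TSS farthest upstream had a signal of 259.6 (rank 3979, and ranks 3647 in replicate 2 and 4562 in replicate 3), which is higher than at 29.6% of the 2876 bound genes. The summit 116 bp downstream of the next TSS had a signal of 218.4 (rank 4834, and ranks 4114 in replicate 2 and 6113 in replicate 3). Both lie below the median of 408 over bound genes. The strongest summit nearest to a Mef2 TSS was 1754 bp downstream of it, in untranslated exon sequence, with a signal of 559.1 (rank 1536). It ranked 1462 in replicate 2 and 1632 in replicate 3. The 7 intronic summits had signals from 164.5 to 392.1, and 3 of them lay within 505 bp of each other. The density was 1.94 IDR summits per 10 kb of Mef2 intron, against 0.645 over the introns of all protein-coding genes.

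The strongest peak near Mef2 lay at the promoter of its neighbour. The summit 1056 bp upstream of Mef2 had a signal of 4528 and rank 19 of 7029, and ranked 23 in replicate 2 and 19 in replicate 3. It lay 164 bp from the TSS of Pal1, in an intron of that gene, which codes for an enzyme of peptide amidation. At 1056 bp it is outside the window used for a Mef2 promoter.

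Among the genes of heart and visceral muscle, tin had the strongest promoter peak of the 10 members. Its single IDR summit within 10 kb lay 216 bp upstream of its TSS in a peak from 21378597 to 21378914 on 3R. The signal was 991.3, rank 655, with rank 589 (signal 499) in replicate 2 and rank 729 (signal 488.1) in replicate 3. The replicate summits lay 0 and 16 bp from the IDR summit. Within 10 kb of tin the first 7029 peaks of replicate 3 alone held 1 summit, and those of replicate 2 alone held 2. The signal exceeded that of 83.0% of the bound genes.

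Its neighbour bap, whose TSS lies 9903 bp from that of tin, had no summit within 10 kb in any of the 4 lists, and so no value below the threshold either. The tin summit lies 10119 bp from the bap TSS, 119 bp beyond that limit. In all, 37.2% of protein-coding genes had no IDR summit within 10 kb.

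The forkhead gene bin had no summit within 500 bp in any list, but a strong one 1306 bp upstream, in a peak from 6989054 to 6989584 on 3L. This peak was 531 bp wide, against a median of 369 bp over the IDR list. Its signal was 947.9 (rank 720), and no other gene's TSS was nearer. The replicates ranked it apart, at 1374 (signal 294.1) in replicate 2 and 431 (signal 655.4) in replicate 3. This 3.19-fold difference in rank is larger than at 97.3% of the IDR peaks matched in both replicates. The summits in the replicates lay only 3 and 6 bp from the IDR summit. The other 4 summits within 10 kb had signals from 180.8 to 204.7 and lay nearer to Mp, a collagen gene (3 summits), or to Galphai, a G protein gene.

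The myoblast gene lmd had 1 IDR summit within 10 kb, 1985 bp upstream of its TSS. Its signal of 278.4 (rank 3678) was just under the IDR median. It ranked 6796 (signal 86.9) in replicate 2 and 2767 (signal 189.5) in replicate 3, a 2.46-fold difference in rank. A summit 475 bp upstream of an lmd TSS was in the joint list at rank 13363 and in replicate 3 at rank 10549, but not in replicate 2.

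The MyoD relative nau stood in a region full of peaks, none of them at its promoter. Within 10 kb lay 7 IDR summits, more than at 98.1% of protein-coding genes, and every one of them had another gene's TSS nearest. The strongest, 4661 bp upstream, had a signal of 1381 (rank 351) and lay 313 bp from the TSS of CG10365. It ranked 355 in replicate 2 and 352 in replicate 3. The next (signal 694, rank 1135) lay in an intron of CG10365. The 1 summit in an intron of nau itself, 4263 bp downstream of its TSS, had a signal of 528.1 (rank 1665, and ranks 1558 in replicate 2 and 1850 in replicate 3), with the TSS of CG10300 nearest, 2567 bp away. Its introns, only 4.01 kb long, had 2.49 IDR summits per 10 kb, a value that rests on this 1 summit. Within 500 bp of the nau TSS no list held a summit.

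The RNA-binding protein gene how carried its IDR summits inside the gene. All 4 lay in introns, from 4302 to 8178 bp downstream of its TSS, and for all 4 how had the nearest TSS. The strongest, 7116 bp downstream, had a signal of 691.4 (rank 1138) and ranked 1213 (signal 321.4) in replicate 2 and 1104 (signal 376.2) in replicate 3. The other 3 had signals from 164.7 to 202.1, and peaks of 2 of them overlapped. The density was 1.25 summits per 10 kb of intron. This count rests on both libraries, since the first 7029 peaks of replicate 3 alone gave how 2 intronic summits and those of replicate 2 alone gave 5. The promoter had summits only below the threshold, the strongest 357 bp upstream at rank 9011 in the joint list, 8453 in replicate 2 and 8803 in replicate 3.

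The adhesion genes differed in their intronic summits. The founder cell gene kirre, 394 kb long, held 34 of the 47 intronic IDR summits counted for the members, while sns, with 48.9 kb of introns, held none and had none within 10 kb. Per 10 kb of intron this was 0.88 for kirre, against 0.645 over all introns. Without kirre the members had 13 intronic summits, 0.696 per 10 kb. Of the 34 summits in kirre, 21 had another gene's TSS nearest and 5 of these lay within 500 bp of such a TSS. In all, 21 other protein-coding genes lie within kirre.

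**Figure D2:**
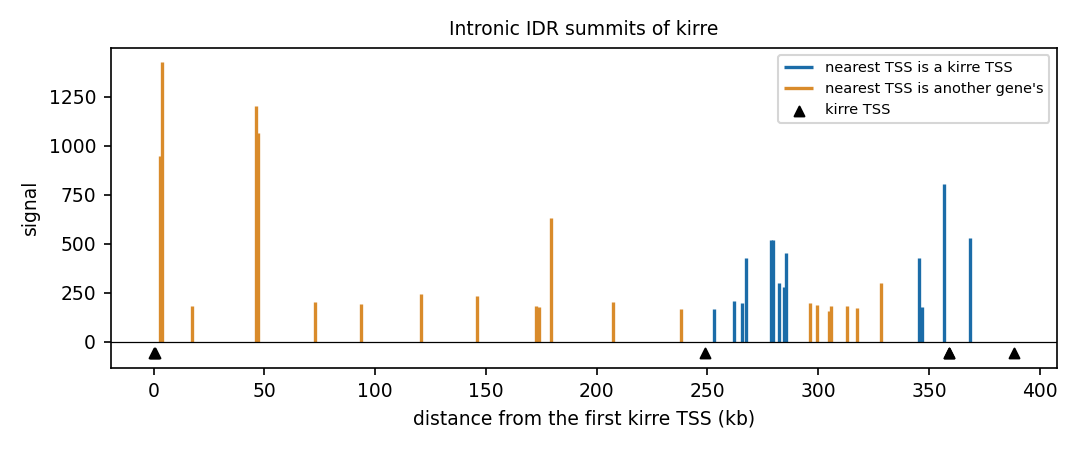
Signal of each intronic IDR summit of kirre against its distance in kb from the first kirre TSS, with colour for the gene whose TSS is nearest and triangles for kirre TSSs. The 2 highest bars, with signals of 1425 and 1200, lie nearest to TSSs of other genes, Syx4 and CG32795.

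The strongest of the kirre summits lay near nested genes. That of rank 338 (signal 1425), in a peak from 2744053 to 2744446 on X, lay 154 bp from the TSS of Syx4, a syntaxin gene, and ranked 279 in replicate 2 and 430 in replicate 3. The next, of signals 1200 and 1062, lay 704 bp apart in an intron of CG32795. The strongest summit nearest to a kirre TSS lay 2340 bp upstream of it, with a signal of 804.9 (rank 918, and ranks 801 in replicate 2 and 1145 in replicate 3). The stretch between the first TSSs and that at 248.7 kb held 14 summits, 0.565 per 10 kb of intron, all nearest to other genes. The stretch from there to the TSSs at 359.2 kb held 19, 1.74 per 10 kb, of which 12 were nearest to kirre. In it 5 summits lay within 6.9 kb, from 278 to 285 kb downstream of the first TSS, with signals from 277 to 518.9. At the TSSs themselves a single peak was listed, below the threshold, 8 bp downstream of a TSS at rank 8225 in the joint list, 7284 in replicate 2 and 10415 in replicate 3.

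For sns the joint list held a promoter summit 34 bp upstream of its TSS at rank 13217 (signal 84.95). This peak ranked 10878 in replicate 2 and 22755 in replicate 3. A stronger one 2802 bp upstream had rank 9176 (signal 120.6). No IDR summit lay within 20 kb of its TSS. Its introns held 2 summits of the joint list, 0.409 per 10 kb against 2.87 over all introns.

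**Figure D3:**
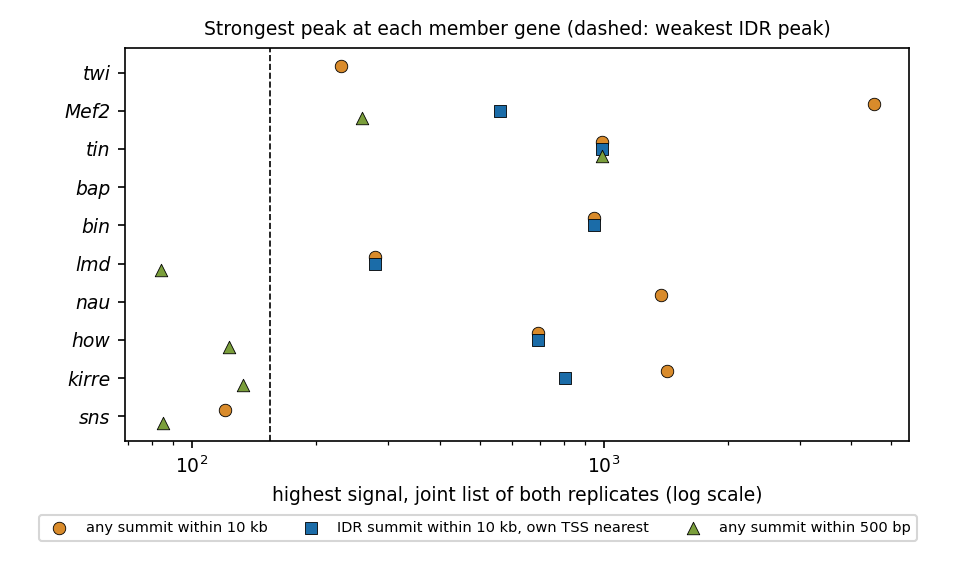
Highest signal at each member in the joint list, on a log axis, for any summit within 10 kb (circles), for IDR summits whose nearest TSS is the member's own (squares) and for any summit within 500 bp (triangles). The dashed line is the weakest IDR signal, 154.4, and only the triangles of Mef2 (259.6) and tin (991.3) lie above it.

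When each member was given by its strongest IDR summit within 10 kb whose nearest TSS was its own, the order of the signals was tin (991.3), bin (947.9), kirre (804.9), how (691.4), Mef2 (559.1) and lmd (278.4), and twi, bap, nau and sns had none. Both replicates ranked tin above kirre and above how, how above Mef2 and Mef2 above lmd. Neighbours from tin to bin, bin to kirre and kirre to how were not ranked in the same order by both replicates, so within each of these pairs the levels do not differ beyond the replicate spread. Ranks by signal over any summit within 10 kb would instead put Mef2 first, through the peak at Pal1.

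**Figure D4:**
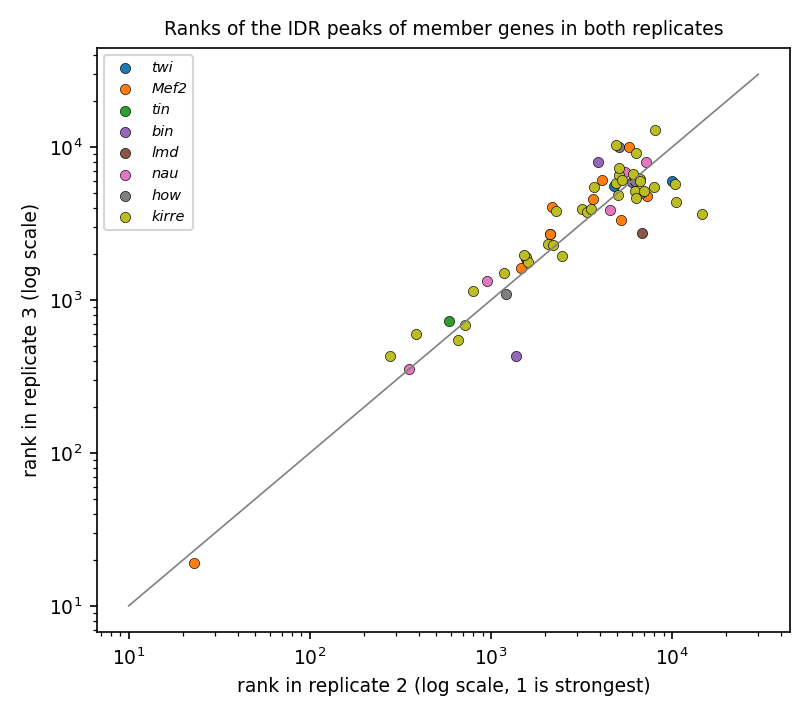
Rank in replicate 3 against rank in replicate 2, both on log axes, for the 65 IDR peaks of the members matched in both replicates, with equal ranks on the line. The point at the lower left, with ranks 23 and 19, is the peak at Pal1 upstream of Mef2, and the bin point at ranks 1374 and 431 lies far from the line.

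Of the 67 IDR peaks counted for the members, 65 overlapped a peak in both replicates, and the other 2, at twi and nau, had none in replicate 2. Within each of 2 overlapping pairs, at Mef2 and how, both peaks were matched to the same replicate peak. The ranks differed by a median of 1.27-fold between the replicates, against 1.33-fold over all IDR peaks. The widest gap was at a weak kirre summit 4198 bp downstream of a TSS (rank 6472), which ranked 14642 in replicate 2 and 3680 in replicate 3.

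Some of the summits near the members had another gene's TSS nearest. Of the 37 IDR summits within 10 kb of a member's TSS, 20 had that gene's own TSS nearest, 54.1%, against 29.4% of all 21516 pairs of a protein-coding gene and an IDR summit within 10 kb. Of these 20 summits 10 belonged to Mef2. Counted over all genes, the median number of IDR summits within 10 kb was 1, and over the members it was 3.

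The members' summits lay in DNA rich in A and T. Over a 51 bp window, A and T made up 68.3% ± 10.3 at the members' summits (mean and SD, n = 67), against 67.0% ± 11.2 elsewhere in the IDR list (n = 6962), a difference smaller than the spread between peaks. It ranged from 33.3% at a summit near Mp, within 10 kb of bin, to 86.3% at the tin summit, which tied with a kirre summit. Summits nearest to a member's TSS had 66.7% ± 11.1 (30 peaks). The higher mean of the members came from kirre, whose 34 intronic summits had 70.5% ± 7.51. The 32 member summits outside kirre had 65.8% ± 12.4, below the 67.0% elsewhere in the IDR list.

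**Figure D5:**
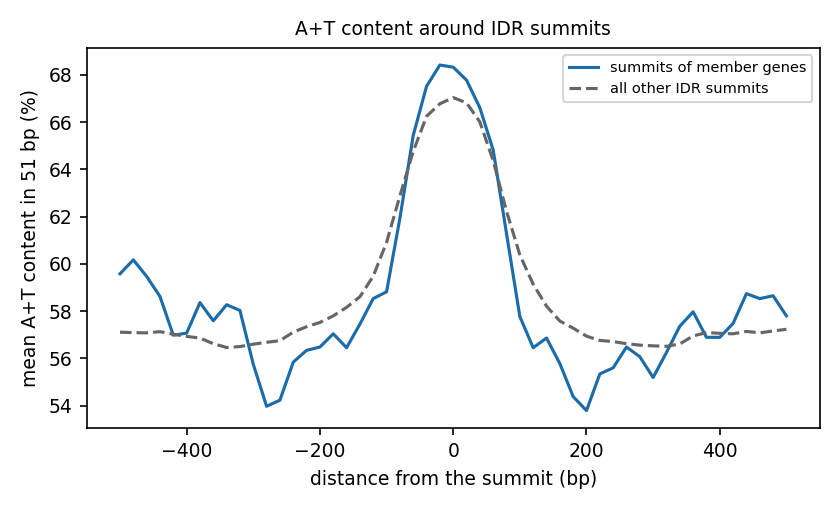
Mean A+T content in 51 bp windows against distance from the summit in bp, for the 67 summits of the members (solid) and for the other 6962 IDR summits (dashed). At the summit the curves stand at 68.3% for the members and 67.0% for the others, and both are highest within 20 bp of it.

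The consensus sequences of mesoderm factors were counted within 100 bp of the summits. CATATG was present at 8 of 67 (11.9%, exact Clopper-Pearson 95% interval 5.3 to 22.2%), against 7.11% of all 7029, and CACATG at 9 (13.4%, interval 6.33 to 23.97%), against 7.65%. The Tinman site was present at 3 (4.48%) against 3.36%, the forkhead core at 17 (25.4%) against 26.97%, and the Mef2 site at 7 (10.45%) against 13.4%. For these 5 sequences the interval of the members contained the share at all IDR summits. The intervals cover counting error only and treat the summits as independent. Of the 67 summits, 34 lay in introns of kirre, so these shares lean heavily on that gene and do not describe the members evenly. The general E box CANNTG, which includes CATATG and CACATG, stood at 44 summits (65.7%) against 57.8%, the GATA factor consensus at 27 (40.3%) against 48.4%, and GAGAG at 10 (14.9%) against 21.35%. The DRE was at 0 of 67 summits, which allows a share of up to 5.36%, against 2.01% of all IDR summits. The M1BP site was at 1 (1.49%), the promoter summit of Mef2 at 7 bp, against 0.996% of all IDR summits. These are matches of letters in a window and not sites shown to be used.

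Other genes of the same processes were then counted for summits within 500 bp of a TSS. Myoblast fusion genes were bound in 6 of 17 cases (35.3%, interval 14.2 to 61.7%) and genes of early mesoderm and FGF signalling in 5 of 13 (38.5%, interval 13.9 to 68.4%), against 20.6% of all protein-coding genes. Visceral mesoderm genes were bound in 3 of 11 cases, sarcomere genes in 6 of 28, genes of muscle founder identity in 2 of 16 and heart genes in 1 of 14. The interval of each list contained 20.6%. Counted once each, 23 of 99 genes were bound (23.2%, interval 15.3 to 32.8%).

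Among the fusion genes the highest signals were at Hem, a subunit of the WAVE complex (1094, rank 550), where the TSS of IleRS was nearer and replicate 2 had no overlapping peak, at mbc, a guanine nucleotide exchange factor of Rac (618.9), where that of Nup98-96 was nearer, at siz, an Arf exchange factor (259.7), and at dock, an adaptor (246.1). Genes named from here on without being among the strongest of their list were picked after their values were seen. The relative of kirre, rst, had 0 intronic summits in 17.2 kb of introns. That of sns, hbs, had 3 in 25.3 kb, and neither was bound. In the FGF pathway the receptor gene htl (521.1, 382 bp upstream) and its adaptor gene stumps (490.6, 305 bp upstream) were bound. The ligand genes pyr and ths were not, and had 1 and 3 intronic summits in 10.9 and 49.5 kb of introns. Over the introns of all protein-coding genes there were 0.645 IDR summits per 10 kb. The partner of Twist, da, had a signal of 427.6 and its antagonist emc 282. The htl peak ranked 3618 in replicate 2 and 1105 in replicate 3.

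The T-box gene org-1 of the visceral list (1433, rank 332, 339 bp upstream) had a higher promoter signal than tin. So did NK7.1 of the founder list (1299, rank 390), and each replicate ranked org-1 and NK7.1 above tin. The founder gene Poxm (1102, rank 541) was not ordered against tin. It ranked 767 in replicate 2 and 407 in replicate 3, beside 589 and 729 for tin. Fas2 (202) and Fas3 (163.2), visceral genes of adhesion proteins, had lower signals than tin. The 1 bound heart gene was the protease gene kuz (168.8). Among the first 7029 peaks of replicate 3 alone, 0 of the 14 heart genes were bound, and among those of replicate 2 alone, 1 was. Of the 14, 5 had an IDR summit within 10 kb, against 62.8% of all protein-coding genes. An intronic one lay in 4 of the 14, against 14.5% of genes with an intron. The founder list was also low within 10 kb, with 5 of 16. The counts were 17 of 28 for sarcomere, 9 of 13 for early mesoderm, 9 of 11 for visceral and 13 of 17 for fusion genes. Of the genes with an intron, 2 of 15 founder, 6 of 28 sarcomere and 3 of 9 visceral genes had an intronic summit. So did 8 of 11 early mesoderm and 7 of 15 fusion genes. Among the sarcomere genes the highest signals were at Msp300, which codes for a nesprin (1606), at the titin-like gene sls (1571), at the tropomodulin gene tmod (753.5) and at the actin gene Act87E (436.1).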

How the data were processed

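Chromatin immunoprecipitation with sequencing was done on 2 biological replicates of embryos of 1 group, with DNA sonicated to 200 to 800 bp, per the labels. The authors deposited 4 peak lists on dm6, 1 per replicate, 1 joint list derived from both and 1 thresholded on the irreproducible discovery rate. The signal of each peak and its −log10 q-value are as deposited by the authors. The aligner, peak caller, settings, use of a control and IDR threshold were not given in the sources used here. No result uses the q-value column. Sequencing depth is unknown, and the control experiment was not analysed here.

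Ensembl release 115 supplied the gene models. Bases were read from RefSeq's release 6 assembly, and no peak ran past the end of an arm. A summit was assigned to every protein-coding gene with a TSS within 500 bp or 10 kb, or with the summit in an intron and in none of its own exons. IDR peaks were matched to replicate peaks by an overlap of at least 1 bp, taking the strongest. The lists were ranked separately, so replicates were compared by rank. With a single group there was no contrast and no test, and shares carry exact Clopper-Pearson 95% intervals, which cover counting error only.

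The members and the 6 gene lists were chosen with earlier results of these data known. Of the list symbols, 96 matched exactly, NK7.1 differed in case, FoxL1 and Obsc were found through RefSeq synonyms, and Arf6 was listed under 2 names and counted once. Named were all members, up to 4 bound genes with the highest signal per list, the genes nearest to the members' summits, and a few picked after their values were seen, which the text marks. Printed sequences are the strongest window of each member not on an arm left out here. The counting was checked on simulated data. Alternatives were other peak lists, windows and assignment rules. Python 3.11.15, numpy 2.4.6, pandas 2.3.3, scipy 1.17.1 and matplotlib 3.10.9 were used.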

Additional observations from a re-analysis of the deposited data

How the results depend on the processing

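No paired analysis was possible because all samples belong to 1 group, with nothing to compare them with. Over 37 results and 146 alternatives, 97 values stayed close and 49 moved. Counts were called close within a fixed fold of the main value, A+T content within its SD over the summits, and signals only when equal. Wider or narrower windows and longer or shorter lists change counts by construction, so the 97 and 49 do not measure robustness. With only the IDR peaks above the median signal, 1 member was bound (tin), as were 1859 protein-coding genes and 13 list genes, and members had 18 intronic summits and 15 within 10 kb. With the whole joint list these were 6 members, 5056 genes, 46 list genes, 189 intronic summits and 110 within 10 kb, and 2721 genes had an intronic summit. A TSS window of 200 bp left 1 member (Mef2) and 13 list genes bound, beside 1949 of 13945 protein-coding genes. Instead of 37, the summits within 10 kb of members were 20 with 1 gene per summit (3598 genes in all), 22 within 5 kb, 62 within 20 kb and 73 within 10 kb of the gene body. Within 50 bp, 23 member summits (34.3%) held a marked consensus, against 36.15% of all IDR summits, and within 100 bp 39 did (58.2%), against 60.3%. The median of the highest signal was 969.6 over the 8 members with a summit within 10 kb, 991.3 over the 7 with one within 5 kb and 1191 over the 9 with one within 20 kb, so the medians cover different genes. Using the first 7029 peaks of 1 replicate in turn, 2 members stayed bound and 5 had intronic summits. In the same lists 8 (replicate 3 alone) or 7 (replicate 2 alone, without twi) had summits within 10 kb. These numbered 34 and 32, beside 42 and 40 intronic ones. Of all protein-coding genes, 3034 (replicate 3 alone) and 2901 (replicate 2 alone) were bound. In the same order, 1732 and 1704 had an intronic summit and 9067 and 8671 had one within 10 kb. Unknown depth and the 30000-peak length of the lists limit what a missing peak can show.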
